A study of Mus musculus with 16 samples.

Results

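The genes described here are the integrin and laminin genes of the mouse, followed through Smoothened-driven change of tail epidermis. They were chosen by symbol alone, as every integrin alpha, integrin beta and laminin alpha, beta or gamma chain symbol in the array annotation. Of 18194 genes that have a probe set of their own on the array, 34 were integrins or laminins: 16 integrin alpha chains, 8 integrin beta chains and 10 laminin chains. A gene with several probe sets (73 in all for the 34) was represented by the brightest of them over the 16 arrays. For 31 of the 34, the signal lay above the filter on low values and the gene was tested. Itgam, Itgb2 and Lama1 lay below it. Itga11 and Itgad are among the genes not analysed here.

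Basal cells of the interfollicular epidermis (IFE) were sorted from tail epidermis of mice of mixed strain. The controls were untreated K14CREER/Rosa-SmoM2-YFP mice (n = 3). Mice of that genotype given tamoxifen, which switches on SmoM2 (a constitutively active Smoothened) in cells that use the keratin 14 promoter, gave 1 array at 3 days, 3 each at 1 and 4 weeks, and 2 at 10 weeks. A further group of K14CREER/Rosa-SmoM2-YFP mice had both β-catenin alleles floxed (b-cat flox/flox), so that tamoxifen deletes β-catenin in the same cells, and was sampled at 4 weeks (n = 2). Bulge and outer root sheath cells came from K19CREERT2/Rosa-SmoM2-YFP mice, untreated (n = 1) or 4 weeks after tamoxifen (n = 1). The controls thus carried the same Cre and SmoM2 alleles without tamoxifen, so SmoM2, tamoxifen, time since it and the sort for SmoM2-positive cells cannot be told apart against them. The labels give no age. Nor do they tell if a replicate is a mouse or a pool of mice, and the p-values therefore cover only the spread between these samples, which may be technical.

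Integrins are heterodimers of an alpha and a beta chain that span the cell membrane and hold a cell to its matrix. Laminins are trimers of an alpha, a beta and a gamma chain and form the sheet of the basement membrane on which basal keratinocytes sit. In the epidermis, the pair of Itga6 and Itgb4 forms the core of the hemidesmosome and binds a laminin that holds the Lama3 and Lamb3 chains, while Itga3 with Itgb1 binds the same laminin at focal contacts. Other Itgb1 partners are collagen receptors (Itga1, Itga2, Itga10), fibronectin and nephronectin receptors (Itga5, Itga8) or laminin receptors (Itga7), and the Itgav pairs with Itgb5, Itgb6 or Itgb8 bind vitronectin or latent TGF-β. Loss of hemidesmosome chains causes skin blistering. Itga8 and its ligand nephronectin are known from the anchoring of the arrector pili muscle to the hair follicle bulge.

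The 3 genes that passed the test in any comparison were Itga3, Itga8 and Lamb2, and the stretch upstream of each start site is shown for that reason. The sequences are the 250 bases before a start in the promoter annotation, 5′ to 3′ on the gene's strand, from RefSeq on GRCm38.p6. For Itga3, which has 2 such starts, the outer one was used. The listed bounds of each gene fall inside its stretch, at 95076844 for Itga3, 12301985 for Itga8 and 108479847 for Lamb2. Part of each stretch thus lies within the gene as listed. Capitals mark a GC box, GGGCGG on either strand.

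Itga3 (chr11:95076715-95076964, minus strand): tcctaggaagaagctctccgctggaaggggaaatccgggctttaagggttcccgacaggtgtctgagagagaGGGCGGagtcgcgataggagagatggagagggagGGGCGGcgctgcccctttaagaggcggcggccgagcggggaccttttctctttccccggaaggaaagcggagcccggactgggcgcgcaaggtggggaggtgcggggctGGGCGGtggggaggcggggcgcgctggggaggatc

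Itga8 (chr2:12301945-12302194, minus strand): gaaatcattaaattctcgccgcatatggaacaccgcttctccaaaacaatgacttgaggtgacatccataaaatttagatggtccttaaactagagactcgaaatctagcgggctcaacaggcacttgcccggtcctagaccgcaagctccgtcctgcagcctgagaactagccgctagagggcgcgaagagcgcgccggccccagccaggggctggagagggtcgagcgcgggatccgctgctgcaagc

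Lamb2 (chr9:108479612-108479861, plus strand): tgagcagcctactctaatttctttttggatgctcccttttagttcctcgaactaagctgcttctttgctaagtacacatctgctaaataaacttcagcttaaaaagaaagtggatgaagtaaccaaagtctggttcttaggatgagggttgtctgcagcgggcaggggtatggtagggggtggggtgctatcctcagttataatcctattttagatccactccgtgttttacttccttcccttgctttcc

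Both strands were also searched for CTTTGA, a core of the TCF/LEF motif, and CCACCCA, a core of the GLI motif, in the 250 bases before and the 50 after the start. These motifs were chosen after the values were seen. Itga3 had 3 GC boxes in the stretch shown, and Lamb2 had 1 CTTTGA match past its start. No other match lay in these 3 windows. In the 250 bases before the start alone, 4 of the 22 genes of the family with a promoter in the table held CTTTGA, 2 CCACCCA and 8 GGGCGG. Over the same stretch of all 32851 promoters in it the shares were 13.8%, 8.11% and 32.7%. A match is a run of letters and no measured binding site.

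Signals are the log2 values deposited by the authors, where a difference of 1 is a 2-fold change, and array medians ran from 5.38 to 5.53. Gli1 and Ptch1, targets of hedgehog signalling, were higher in each of the 11 IFE arrays taken after tamoxifen than in every control. At 4 weeks the Gli1 difference was 4.91 ± 0.54 (SE; limma adjusted p = 0.00587). Ctnnb1, the β-catenin gene, had signals of 12.76 and 12.93 in the loss group and 13.65, 13.21 and 13.26 with SmoM2 alone at 4 weeks, a difference of -0.52 ± 0.21 (SE; limma adjusted p = 0.215). The controls read 13.04, 12.76 and 12.77, and the loss group overlapped them (difference -0.01 ± 0.21 SE, limma adjusted p = 0.987). The Ctnnb1 signal therefore does not show the deletion against untreated epidermis. Whether the Ctnnb1 probe set lies inside the floxed part was not tested. The summed level of basal keratinocyte markers, a mean log2 signal of 5 of 5 genes, was 12.66 to 13.34 in the IFE arrays and 13.02 and 12.65 in the bulge arrays. The 7 bulge markers averaged 7.56 to 7.98 in the IFE controls and 10.46 in the bulge control. Both 10-week arrays were unusually alike, with a median absolute difference of 0.118 against 0.279 to 0.484 in other replicate pairs. Y-linked signal, which tells the sex mix of a sample, was not balanced between groups. Its mean log2 was 3.41, 8.18 and 3.43 in the controls, 8.41, 7.58 and 6.02 at 4 weeks and 8.10 and 8.15 at 10 weeks. With β-catenin loss it was 3.39 and 6.91. It was 6.35 in the bulge control and 3.48 in the bulge SmoM2 array.

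**Figure D1:**
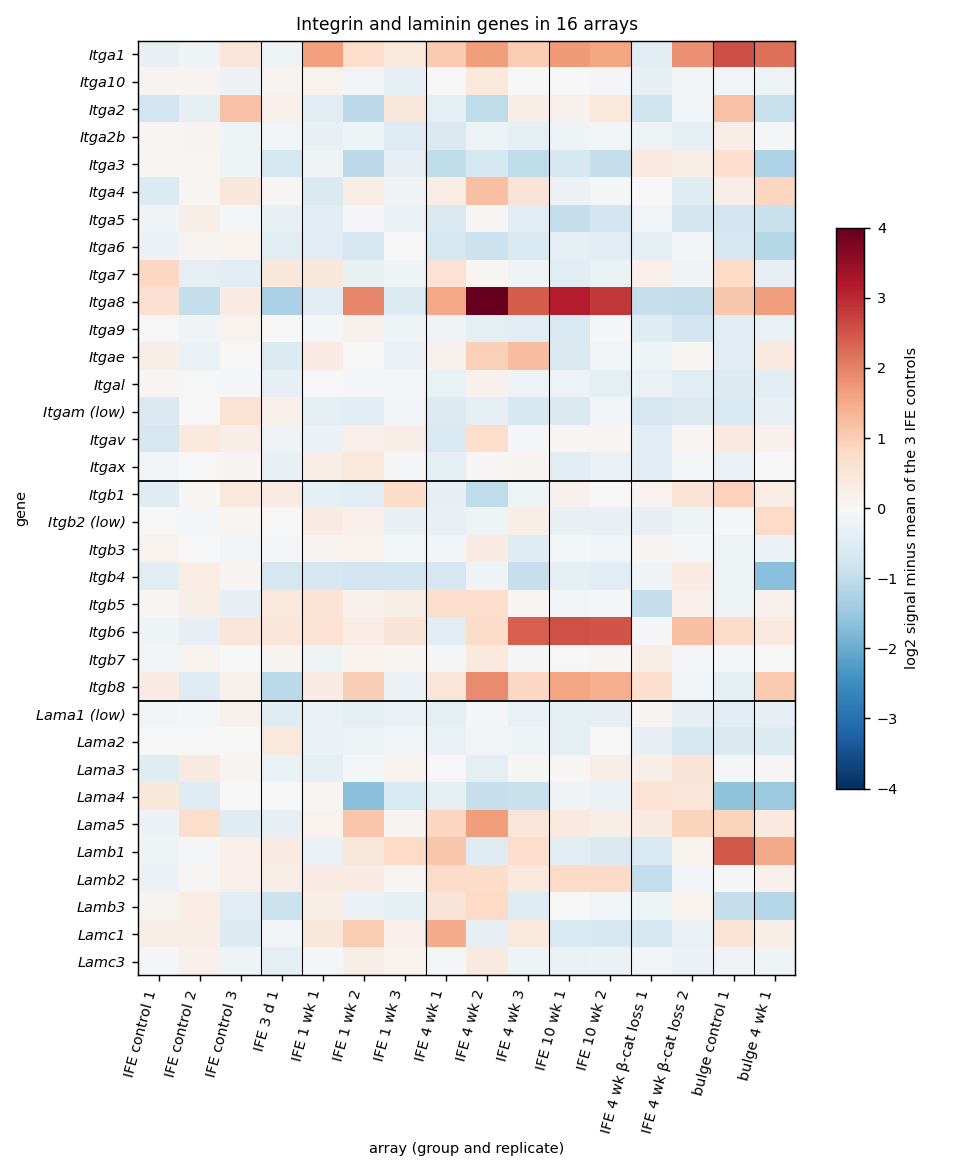
Log2 signal minus the mean of the 3 IFE controls for 34 integrin and laminin genes (rows; "low" marks the 3 below the filter) in 16 arrays (columns, by group and replicate). Itga8 has the widest range, from -1.30 at 3 days to over 4 in 4-week replicate 2, and most of the other rows stay pale.

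With β-catenin loss beside SmoM2, 3 of the 31 genes tested passed the threshold, and none did in any other comparison. Against SmoM2 alone at 4 weeks, Itga3 rose while Itga8 and Lamb2 fell. The share was 9.68% of the family, against 2.23% of all 14286 genes tested (318 genes). In the rising direction it was 1 gene, against 0.644% of all genes, and in the falling direction 2 genes, against 1.58%.

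Itga8, the nephronectin receptor chain, had signals of 6.78, 9.39 and 7.64 with SmoM2 alone at 4 weeks and 4.29 and 4.28 with β-catenin loss. The groups did not overlap, and both loss arrays lay at the level of the lowest control. The difference was -3.65 ± 0.82 (SE; limma adjusted p = 0.0452). Both loss values lie under the filter level, an array's 40th percentile, which was 4.88 to 5.01. A second probe set of Itga8 read 4.02, 4.69 and 5.13 with SmoM2 alone and 3.58 and 3.48 with the loss, a difference of -1.08 in the same direction.

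Itga3, the alpha chain that pairs with Itgb1 to bind laminin, had signals of 7.49, 7.81 and 7.51 with SmoM2 alone at 4 weeks and 8.92 and 8.75 with β-catenin loss. Both loss arrays stood above all 3 SmoM2 arrays and above all 3 controls, which read 8.60, 8.61 and 8.36. The difference from SmoM2 alone was 1.23 ± 0.26 (SE; limma adjusted p = 0.0409), and that from the controls was 0.32 ± 0.26 (limma adjusted p = 0.591). The other two Itga3 probe sets differed by 0.75 and 0.28 in the same direction.

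Lamb2, a beta chain of laminins of vessels, muscle and nerve endings that epidermal basement membrane also holds, read 8.04, 8.01 and 7.70 with SmoM2 alone at 4 weeks. With β-catenin loss it read 6.30 and 7.18, both below the 3 SmoM2 arrays but far apart from each other. The difference was -1.17 ± 0.26 (SE; limma adjusted p = 0.0438). Lamb2 has 1 probe set on the array.

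All 3 calls lie close to the threshold, and each kept its direction but was lost under 8 of 16 alternatives. Fitted on only the 5 arrays compared, none passed (limma adjusted p = 0.131 for Itga3, 0.0842 for Itga8 and 0.215 for Lamb2). Leaving out single arrays mattered as well. Without loss replicate 1 the adjusted p was 0.312, 0.308 and 0.381 in the same order, and the Lamb2 difference was -0.73. Without loss replicate 2, Lamb2 kept its call (0.017), while Itga3 and Itga8 did not (0.089 and 0.125). Without 4-week replicate 1 the call of Itga8 was kept (0.0425), and that of Itga3 (0.0788) and Lamb2 (0.0851) was not. Without 4-week replicate 2 the call of Itga3 was kept (0.0492), and that of Itga8 (0.0852) and Lamb2 (0.08) was not. Without 4-week replicate 3 no call was kept (0.0723, 0.069 and 0.0522 for Itga3, Itga8 and Lamb2). With Y-linked signal as a covariate, Itga3 (0.0452) and Itga8 (0.0241) passed and Lamb2 (0.0943) did not.

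**Figure D2:**
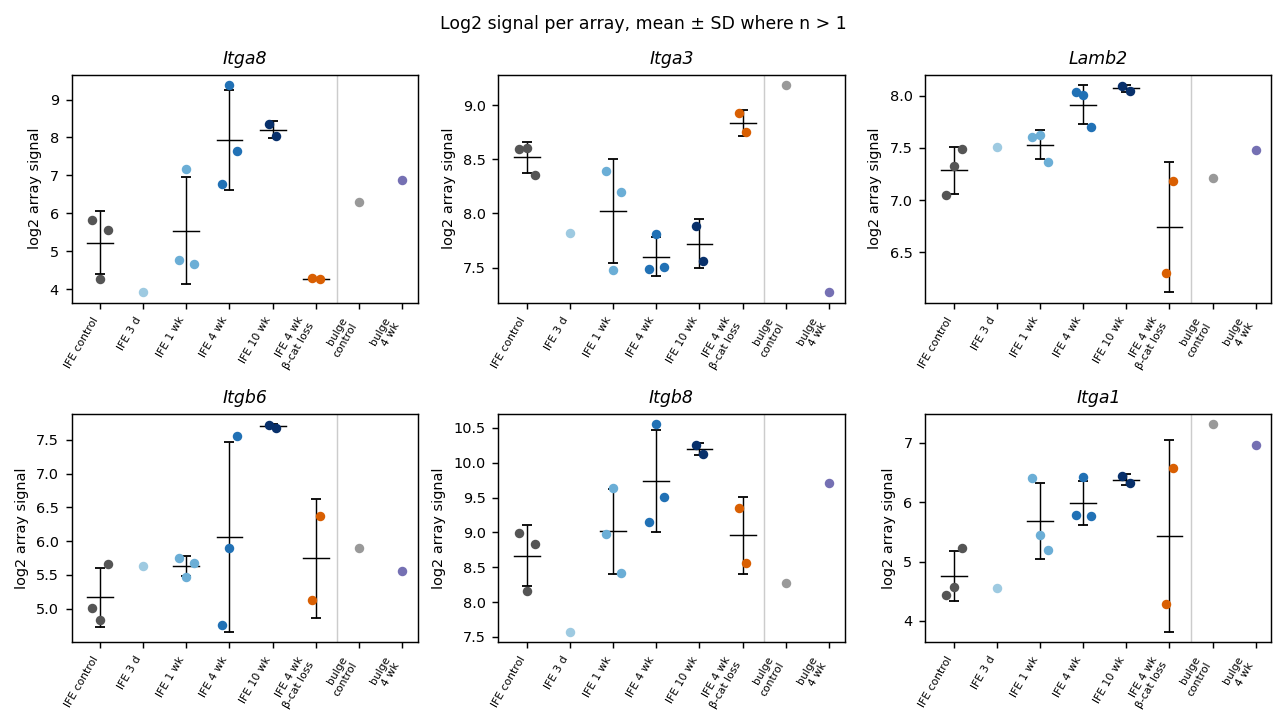
Log2 signal per array (points) of 6 genes in the 8 groups, with the mean and SD (bars) where a group has more than 1 array; the grey line parts IFE from bulge arrays. Itga8 reads 6.78 to 9.39 at 4 weeks and 4.28 to 4.29 with β-catenin loss, and Itga3 takes the opposite course.

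Beyond these 3, the loss group differed from SmoM2 alone without overlap for 11 genes, namely Itga6, Itgb1, Itgb4, Lama3 and Lama4 (higher) and Itga4, Itga9, Itga10, Itgae, Itgal and Lama2 (lower). With the 3 called genes that is 14 of 31, or 45.2%, against 28.6% of all genes. Unadjusted, 10 of the 31 had p under 0.05 (32.3%, against 17.2% of all genes). Differences that did not pass the threshold were 0.49 ± 0.23 for Itga6, 0.68 ± 0.27 for Itgb4, 0.84 ± 0.39 for Itgb1 and 0.49 ± 0.26 for Lama3 (SE; limma adjusted p = 0.302, 0.218, 0.291 and 0.388). Itgb1 passed when replicate number was made a block (0.0411), though these numbers do not pair the loss arrays with the rest. For Lamb3, which joins Lama3 in one laminin, the difference was -0.29 ± 0.37 (SE), and its groups overlapped. For Lama4, a laminin alpha chain best known from vessel walls, the difference was 1.25 ± 0.42 (limma adjusted p = 0.15, and 0.047 with the experiment number as a block), with 7.15 and 7.08 against 6.24, 5.68 and 5.68. Lamc1, the common gamma chain, was on the other side at -1.02 ± 0.45 (limma adjusted p = 0.275), and its groups overlapped. Over the 31 genes, 22 lay lower with the loss and the median difference was -0.24, beside -0.09 over all genes.

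Mean levels of markers of other cells differed in this comparison too, with overlap for leukocyte and suprabasal keratinocyte markers. In the lists named in this paragraph no gene passed the threshold, apart from 1 of 4 Schwann cell markers, which fell. The Schwann cell markers averaged 6.78 to 7.496 with SmoM2 alone and 6.01 to 6.47 with the loss, with a median difference of -0.27. The 7 dermal fibroblast markers, 7 of 7 above the filter, averaged 5.88 to 6.71 in the 4-week SmoM2 arrays and 4.94 to 5.52 with β-catenin loss. The 16 leukocyte markers on the array averaged 5.37 to 6.50 with SmoM2 alone and 4.998 to 5.88 with the loss, and the 15 tested had a median difference of -0.46. The 7 bulge markers averaged 9.12 to 9.92 with SmoM2 alone and 8.20 to 8.84 with the loss. The 8 melanocyte markers averaged 6.29 to 7.61 with SmoM2 alone and 5.54 to 5.55 with the loss, and the 7 suprabasal keratinocyte markers 8.05 to 9.76 and 9.01 to 9.13. The 3 hedgehog targets had a median difference of -2.06 and were lower in 3 of 3 genes. Gli1 read 7.22 in loss replicate 1 and 9.56 in replicate 2, and Ptch1 10.71 and 12.50, so the array with the lower Lamb2 signal was also the one with the lower hedgehog targets. The part of hedgehog signal and of such cells in the differences of Itga8, Itga3 and Lamb2 was not tested. In such bulk samples, fewer cells of a type and less RNA per cell cannot be told apart.

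SmoM2 at 4 weeks against the untreated controls gave 0 of 31 calls by limma, while 463 of all genes (3.24%) passed. Unadjusted, 10 of the 31 had p under 0.05, or 32.3%, against 15.1% of all genes. They lay on both sides: Itga1, Itga8, Itgae, Itgb8, Lama5 and Lamb2 higher, and Itga2b, Itga3, Itga6 and Itgb4 lower. The median absolute difference over the 31 genes was 0.44, beside 0.23 for all genes, and the signed median was 0.02. In 8 genes the arrays of both groups did not overlap (25.8%, against 17.3% of all genes). Marker levels of other cells differed beside these values. Of 7 bulge markers 3 rose (median difference 1.60), of 7 suprabasal keratinocyte markers 2 fell (median -0.94) and of 7 dermal fibroblast markers 1 rose (median 0.31). The 8 melanocyte markers had a median of -1.54, with 7 of 8 lower. Their part in the differences of the family was not tested.

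The hemidesmosome core stood lower at 4 weeks on its alpha side. Itga6 read 11.99, 12.32 and 12.37 in the controls, against 11.52, 11.38 and 11.61 at 4 weeks. All 3 SmoM2 arrays lay under all 3 controls, with a difference of -0.73 ± 0.20 (SE; limma adjusted p = 0.0807). Replicate numbers pair these arrays, and with the number as a block Itga6 passed (limma adjusted p = 0.0385). The second Itga6 probe set differed by -0.83, though its groups overlapped.

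Its partner Itgb4 read 9.94, 10.68 and 10.48 in the controls, 9.70, 9.61 and 9.61 at 1 week and 9.71, 10.20 and 9.44 at 4 weeks. The 1-week arrays lay below every control, and those of 4 weeks overlapped them. The differences were -0.73 ± 0.24 at 1 week and -0.59 ± 0.24 at 4 weeks (SE; limma adjusted p = 0.679 and 0.271). Itgb4 was the only member with an unadjusted p under 0.05 at 1 week, where 4.74% of all genes had one and 0 passed after adjustment.

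Lama3 and Lamb3, chains of their ligand, did not pass. Lama3 read 9.89, 10.72 and 10.47 in the controls, against 10.35, 9.97 and 10.42 at 4 weeks, and the groups overlapped (difference -0.12 ± 0.24, SE). Lamb3 read 10.60, 10.80 and 10.09 in the controls, against 11.02, 11.29 and 9.98 at 4 weeks, with overlap as well (difference 0.26 ± 0.33, SE). The limma adjusted p was 0.903 for Lama3 and 0.818 for Lamb3, and these intervals are too wide to say that either stayed level.

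**Figure D3:**
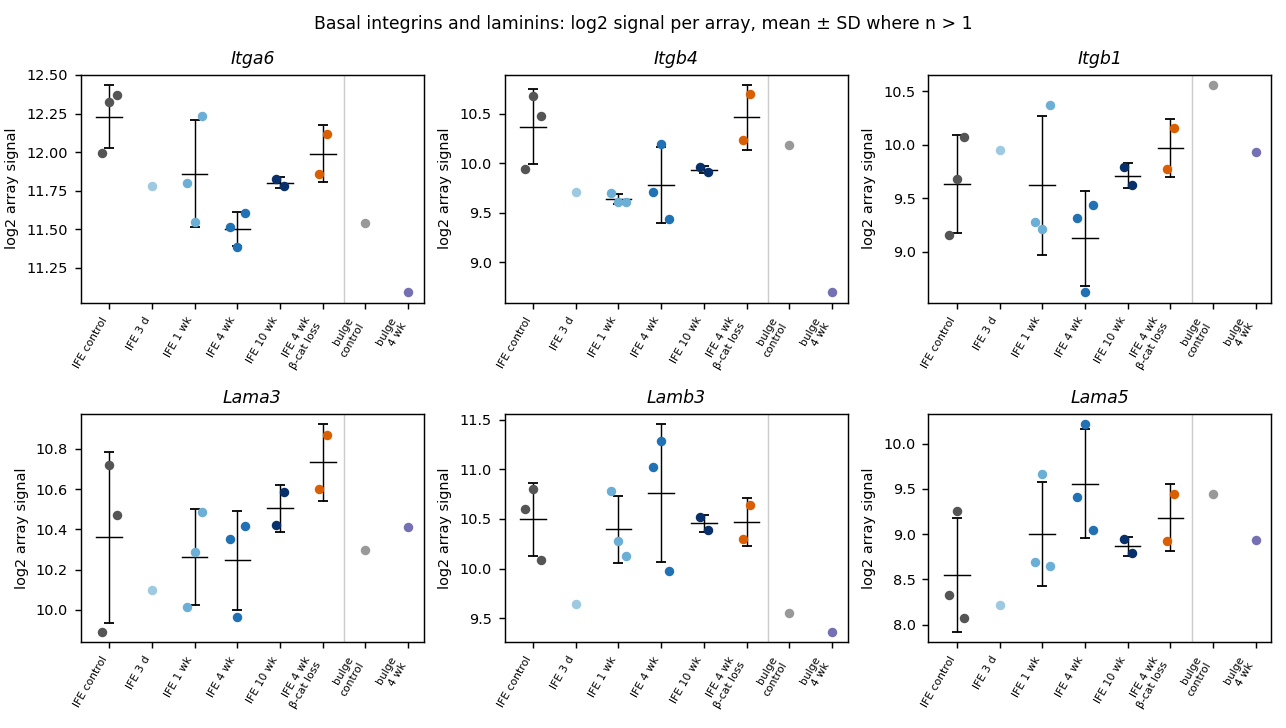
Log2 signal per array (points) of Itga6, Itgb4, Itgb1, Lama3, Lamb3 and Lama5 in the 8 groups, with mean and SD (bars) where there is more than 1 array. The 4-week arrays of Itga6 (11.38 to 11.61) lie below the controls (11.99 to 12.37), and those of Lama3 and Lamb3 overlap them.

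Other hemidesmosome genes, taken from a list of 4, gave no call in any comparison. The one nearest was Col17a1, the transmembrane collagen of the hemidesmosome, at -0.74 ± 0.21 at 4 weeks (SE; limma adjusted p = 0.0922). It read 12.88, 13.14 and 13.01 in the controls, against 12.21, 12.60 and 11.99 at 4 weeks, without overlap. Dst and Plec, the plakins that tie keratin to the plaque, differed by -0.28 and -0.18, and the tetraspanin Cd151 by 0.09.

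Itga3 had the smallest p among integrins and laminins at 4 weeks. From controls of 8.60, 8.61 and 8.36, it read 7.82 at 3 days, 8.39, 7.48 and 8.20 at 1 week, 7.49, 7.81 and 7.51 at 4 weeks and 7.88 and 7.56 at 10 weeks. The 3-day, 4-week and 10-week arrays all lay below the controls, and the 1-week arrays overlapped them. The 4-week difference was -0.92 ± 0.24 (SE; limma adjusted p = 0.0601) and passed with the replicate block (0.0462) and with Y-linked signal as a covariate. It did not pass with the experiment number as the block (0.0513) or with the block within the control, 1-week and 4-week arrays (0.0714), the groups whose numbers pair the arrays. At 10 weeks it was -0.80 ± 0.26 (limma adjusted p = 0.219). Itgb1, its partner, read 9.15, 9.68 and 10.07 in the controls, against 9.31, 8.62 and 9.44 at 4 weeks, which overlap (difference -0.51 ± 0.34, SE; limma adjusted p = 0.583).

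Itga8 was higher after SmoM2 from 4 weeks on in signal, though not past the threshold. The controls read 5.83, 4.28 and 5.56, the 3-day array 3.92 and the 1-week arrays 4.78, 7.18 and 4.67. At 4 weeks it read 6.78, 9.39 and 7.64 and at 10 weeks 8.37 and 8.05, all above every control. The differences were 2.71 ± 0.73 at 4 weeks and 2.99 ± 0.82 at 10 weeks (SE; limma adjusted p = 0.0718 and 0.131). With Y-linked signal as a covariate both passed, at 0.0216 and 0.0405. Npnt, which encodes the ligand nephronectin, read 9.79, 8.66 and 8.88 in the controls, 10.21, 7.23 and 9.39 at 4 weeks and 7.02 and 6.87 at 10 weeks. Its 10-week arrays were below every control, at -2.17 ± 0.72 (SE; limma adjusted p = 0.226), while its 4-week arrays spread on both sides of them.

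The Itgav partners differed among themselves. Itgb8, whose pair with Itgav activates TGF-β, read 8.99, 8.16 and 8.84 in the controls, 9.15, 10.55 and 9.50 at 4 weeks and 10.25 and 10.13 at 10 weeks. Both later groups lay above every control, at 1.07 ± 0.40 and 1.53 ± 0.45 (SE; limma adjusted p = 0.214 and 0.162). The lone 3-day array, at 7.57, lay below all of them.

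Itgb6, an epithelial beta chain that is induced in wounded skin and activates TGF-β with Itgav, read 5.01, 4.83 and 5.65 in the controls. It read 7.72 and 7.68 at 10 weeks, the widest gap of the family at that time relative to its error, at 2.54 ± 0.63 (SE; limma adjusted p = 0.1, 0.0415 with the replicate block and 0.0778 with the experiment number as the block). At 4 weeks its arrays read 4.75, 5.89 and 7.55, so that replicate 3 alone reached the 10-week level. The 10-week comparison called 0 of 31 by limma, beside 100 of all genes (0.7%), and 7 of 31 had an unadjusted p under 0.05 (22.6%, against 10.6%). Fitted on only the control and 10-week arrays, it called 4, namely Itga1, Itga8, Itgb6 and Itgb8, where 738 of all genes passed. In that fit the spread comes from 5 arrays, among them the 10-week pair, the most alike of all replicate pairs.

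Itgav read 10.44, 11.52 and 11.38 in the controls, against 10.49, 11.81 and 11.06 at 4 weeks, and its difference was 0.01 ± 0.35 (SE). Itgb5, the vitronectin receptor beta chain, read 10.45, 10.63 and 10.06 in the controls, against 11.07, 11.07 and 10.45 at 4 weeks. With β-catenin loss it read 9.43 and 10.59, which overlaps the 4-week arrays (difference -0.86 ± 0.33, SE; limma adjusted p = 0.205). For Itgav and Itgb5 the groups overlapped at 4 weeks too.

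Among collagen receptors, Itga1 read 4.44, 4.58 and 5.23 in the controls, 5.79, 6.42 and 5.76 at 4 weeks and 6.44 and 6.32 at 10 weeks. The later groups lay above the controls, with differences of 1.24 ± 0.50 and 1.63 ± 0.56 (SE; limma adjusted p = 0.257 and 0.249). In the β-catenin loss group the arrays lay apart, at 4.29 and 6.57. Itga2 varied widely within groups, with 5.11, 5.48 and 7.03 in the controls, against 5.51, 4.85 and 6.15 at 4 weeks. The 4-week difference was -0.37 ± 0.52 (SE; limma adjusted p = 0.844). Itga10 and Itga7 gave no unadjusted p under 0.05 in any comparison.

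Of the fibronectin receptors, Itga5 read 5.46, 5.85 and 5.52 in the controls, against 4.65 and 4.86 at 10 weeks, below all controls (-0.86 ± 0.26, SE; limma adjusted p = 0.17). Those 10-week values lie near or below the filter level. Another Itga5 probe set of like mean signal differed by 0.06 at 10 weeks, so the probe sets of this gene do not run together. Itga9, a tenascin receptor of epidermis, read 5.47, 5.33 and 5.61 in the controls, against 4.99 and 4.72 with β-catenin loss, below every control (-0.61 ± 0.22, SE; limma adjusted p = 0.226). Those loss values lie near or below the filter level. A second, dimmer Itga9 probe set read 4.58, 4.35 and 5.24 in the controls and 4.66 and 4.56 with the loss, which overlap. Itga9 and Lama2 were the 2 members with an unadjusted p under 0.05 between the loss group and the controls, beside 14.6% of all genes, where 53 of all genes (0.371%) passed and 0 members did.

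**Figure D4:**
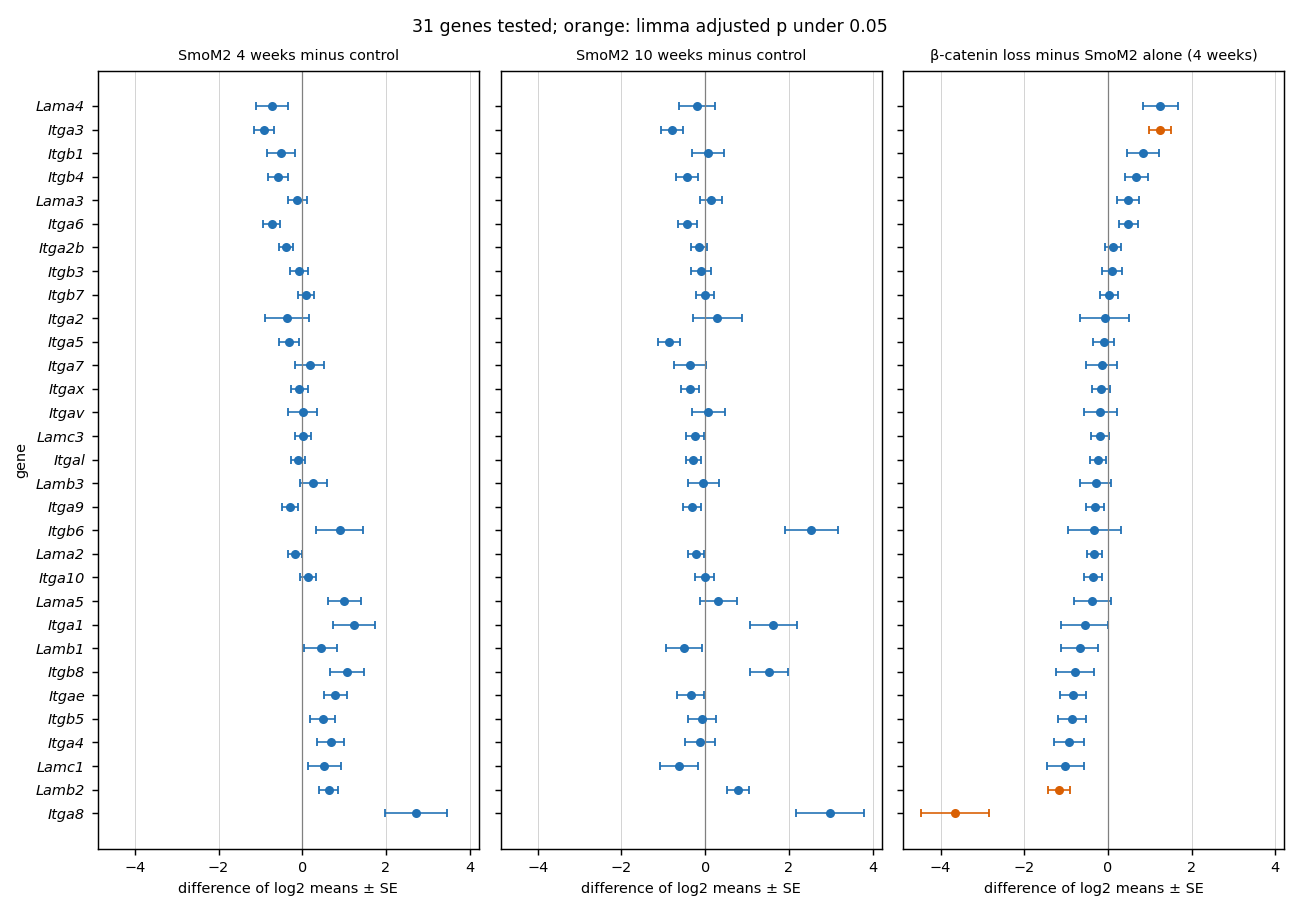
Difference of log2 group means with its SE (points and bars) for the 31 genes tested, in the order of the right-hand panel and on 1 scale. Orange points, Itga3, Lamb2 and Itga8 at right, have a limma adjusted p under 0.05; Itga8, at 2.71 and 2.99 in the other panels, lies on the opposite side there.

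Several leukocyte integrins were dim. Itgam, the myeloid alpha chain, and its beta chain Itgb2 did not pass the filter, with Itgam at 3.68 to 4.96 over all arrays. Each exceeded the filter level in 1 array. For Itgb2 that was the bulge SmoM2 array, at 5.14 beside 4.32 in the bulge control. Itgal and Itgax, chains of T cell and dendritic cell integrins, and Itgb7 gave no unadjusted p under 0.05 in any comparison. Itgae, which with Itgb7 binds E-cadherin and marks T cells that live in the epidermis, read 5.37, 4.87 and 5.14 in the controls, against 5.29, 6.09 and 6.37 at 4 weeks. The groups overlapped, and the difference was 0.79 ± 0.28 (SE; limma adjusted p = 0.184). Against 4 weeks, the β-catenin loss arrays were lower, at 4.96 and 5.21 (-0.83 ± 0.31, SE; limma adjusted p = 0.198). Itga4, whose pairs bind fibronectin and VCAM, read 5.84, 6.74 and 6.05 at 4 weeks against 4.96, 5.83 and 5.40 at 1 week, so the lowest 4-week array stood just above the highest 1-week array.

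The 16 leukocyte markers on the array, 15 of them above the filter, averaged 5.39 to 6.08 in the controls, against 5.37 to 6.50 at 4 weeks. The list held Cd3g below the filter and had 0 calls in each comparison. At 4 weeks 12 of 15 differed upwards, with a median of 0.17. The part of leukocytes in the Itgae and Itga4 values was not tested. Itga2b and Itgb3, the platelet pair, stood beside platelet markers of which 4 of 6 were above the filter and whose mean was 4.52 to 4.998 in every IFE array. Itgb3 is itself on that marker list, so the mean is not independent of it. Itga2b read 6.97, 7.005 and 6.72 in the controls, against 6.32, 6.69 and 6.49 at 4 weeks, below them all (-0.40 ± 0.17, SE; limma adjusted p = 0.287). Itgb3 overlapped the controls at 4 weeks, at -0.08 ± 0.21 (SE).

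Of the laminins, Lama5, the alpha chain of the broadly spread epithelial laminins and one needed for hair growth, read 8.32, 9.26 and 8.07 in the controls, against 9.42, 10.22 and 9.04 at 4 weeks. The groups overlapped, with replicate 2 the highest in both, and the 4-week arrays exceeded the controls of their own number by 1.09, 0.95 and 0.97. The difference was 1.01 ± 0.39 (SE; limma adjusted p = 0.229), and with the replicate block it passed (± 0.22, 0.0287). A second probe set differed by 1.06. Of 18 alternatives, the 3 fits with a block called it, and no other did.

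Lamb2 at 4 weeks stood above the controls, which read 7.04, 7.33 and 7.49, at 0.63 ± 0.23 (SE; limma adjusted p = 0.2). At 10 weeks it read 8.09 and 8.05, again above them all (0.78 ± 0.26, SE; limma adjusted p = 0.218). At 1 week it read 7.60, 7.62 and 7.37, which overlaps the controls and lies below each 4-week array.

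Lamb1 and Lamc1, the usual beta and gamma chains, had a wide spread at 4 weeks. Lamb1 read 8.61, 8.73 and 8.99 in the controls, against 9.90, 8.26 and 9.48 at 4 weeks. Lamc1 read 8.19, 8.18 and 7.38 in the controls, 9.40, 7.59 and 8.35 at 4 weeks and 7.31 and 7.29 at 10 weeks. On the probe sets used, 4-week replicate 1 was the highest of the IFE arrays for both genes and 4-week replicate 2 the lowest of its group, and 10-week arrays lay below every control. None of these passed, with 10-week differences of -0.51 ± 0.44 and -0.62 ± 0.45 (SE; limma adjusted p = 0.835 and 0.766). The other Lamb1 probe sets above 5 in mean signal differed by -0.14 and -0.20 at 4 weeks, beside 0.44 for the one used. In neither was 4-week replicate 1 the highest IFE array or both 10-week arrays below every control. The second Lamc1 probe set was highest in 1-week replicate 1, at 7.32 beside 7.24 in 4-week replicate 1. Lama2 stayed between 5.20 and 6.28 and Lamc3 between 4.61 and 5.31 over all 16 arrays.

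Lists of genes that work with integrins and laminins gave calls at 4 and 10 weeks, where the members gave none, and with β-catenin loss. Of 23 other basement membrane genes tested, 3 rose at 4 weeks and 0 fell, beside 3.24% of all genes called: Col4a1 by 3.40 ± 0.64, Col4a2 by 3.22 ± 0.57 and Fbln2, a fibulin that binds laminin and nidogen, by 2.28 ± 0.43 (SE; limma adjusted p = 0.0241, 0.02 and 0.0241). Col4a1 and Col4a2 are the chains of the common collagen IV network. At 10 weeks 1 of 23 rose, beside 0.7% of all genes called: the collagen IV chain Col4a3, by 2.62 ± 0.52 (limma adjusted p = 0.0475). With β-catenin loss against SmoM2 alone, 1 of 23 fell, beside 1.58% of all genes: Frem2, a membrane protein that links epidermis to dermis in the embryo, at -3.27 ± 0.48 (limma adjusted p = 0.0122). The list's median was -1.07 there, with 20 of 23 lower, beside -0.09 over all genes.

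Of 31 genes of the integrin adhesion complex, 2 rose and 2 fell at 4 weeks, beside 3.24% of all genes called. Fermt2 (kindlin, which activates integrins from inside the cell) rose by 1.67 ± 0.29 and Actn1, an actin crosslinker, by 1.31 ± 0.27, while the tensins Tns1 and Tns3 fell by 1.86 and 1.06 (SE where given; limma adjusted p = 0.0165, 0.0267, 0.0311 and 0.0464). With β-catenin loss Fermt2 was the 1 gene of 31 to fall (beside 1.58% of all genes), at -1.82 ± 0.32 (SE; limma adjusted p = 0.0235). Of 19 ligands tested, 0 passed against the controls at any time, and Fn1, fibronectin, was the 1 to fall with β-catenin loss, at -2.21 ± 0.39 (SE; limma adjusted p = 0.0235). No gene of these lists passed at 3 days or 1 week. The fibroblast, leukocyte, bulge, suprabasal, melanocyte and Schwann cell markers named above differed in level beside these values, and their part was not tested.

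In the bulge, each group was 1 array, so differences have no replicate check and no test. Bulge and IFE arrays came from mice of different Cre lines, so cell compartment and line cannot be told apart between them. Between the SmoM2 and control bulge arrays 5 of 31 genes differed by more than 1 (16.1%, against 6.94% of all genes). In the SmoM2 array, Itga2 differed by -2.05 (7.04 in the control and 4.99), Itga3 by -1.92 (9.19 and 7.27), Itgb4 by -1.48 (10.18 and 8.70) and Itga7 by -1.12 (6.06 and 4.95). Itgb8 was higher, at 9.72 against 8.27. The IFE differences at 4 weeks had the same sign for Itga2 (-0.37), Itga3 (-0.92), Itgb4 (-0.59) and Itgb8 (1.07), and the opposite sign for Itga7 (0.17). Set against the 4-week IFE mean, 4 genes of the bulge SmoM2 array differed by more than 1 (12.9%, against 5.82%): Lamb1 by 1.07, Itga8 by -1.06, Itgb4 by -1.08 and Lamb3 by -1.39. For Itga8, the bulge control read 6.30, above all IFE controls, and the SmoM2 array 6.88, a difference of 0.58. On the second Itga8 probe set, where these controls lay under the filter level, the bulge control was not above all IFE controls. Its difference from their mean was 0.16 there.

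The bulge control differed from the IFE control mean by more than 1 in 5 of 31 genes (16.1%, against 12.9%). Itga1 was higher by 2.56, Lamb1 by 2.49, Itga2 by 1.17 and Itga8 by 1.07, while Lama4 was lower, at -1.62. Lamb1 read 11.27 there, above its range of 8.16 to 9.90 in the IFE arrays, and its other two probe sets above 5 in mean signal were higher by 2.82 and 2.13. The 5 smooth muscle markers, all above the filter, averaged 8.09 in the bulge control, 6.77 in the bulge SmoM2 array and 5.41 to 6.64 in the IFE arrays, and their part in the Itga1, Itga7, Itga8 and Lamb1 values was not tested. From bulge control to bulge SmoM2, suprabasal keratinocyte markers went from 8.54 to 9.82 and leukocyte markers from 5.49 to 6.44. Bulge markers went from 10.46 to 10.08, and Y-linked signal from 6.35 to 3.48. The part of these in the bulge differences of the family was not tested. The bulge control is labelled both untreated and SmoM2-positive, and its Ptch1 signal was 12.57, beside 8.66 to 9.11 in the IFE controls. The bulge SmoM2 array was close to it, with Ptch1 at 12.78 and Gli1 at 9.96, against 9.89 for Gli1 in the bulge control. The mean of the 3 hedgehog targets was 10.04 in the bulge control and 11.13 in the bulge SmoM2 array.

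**Figure D5:**
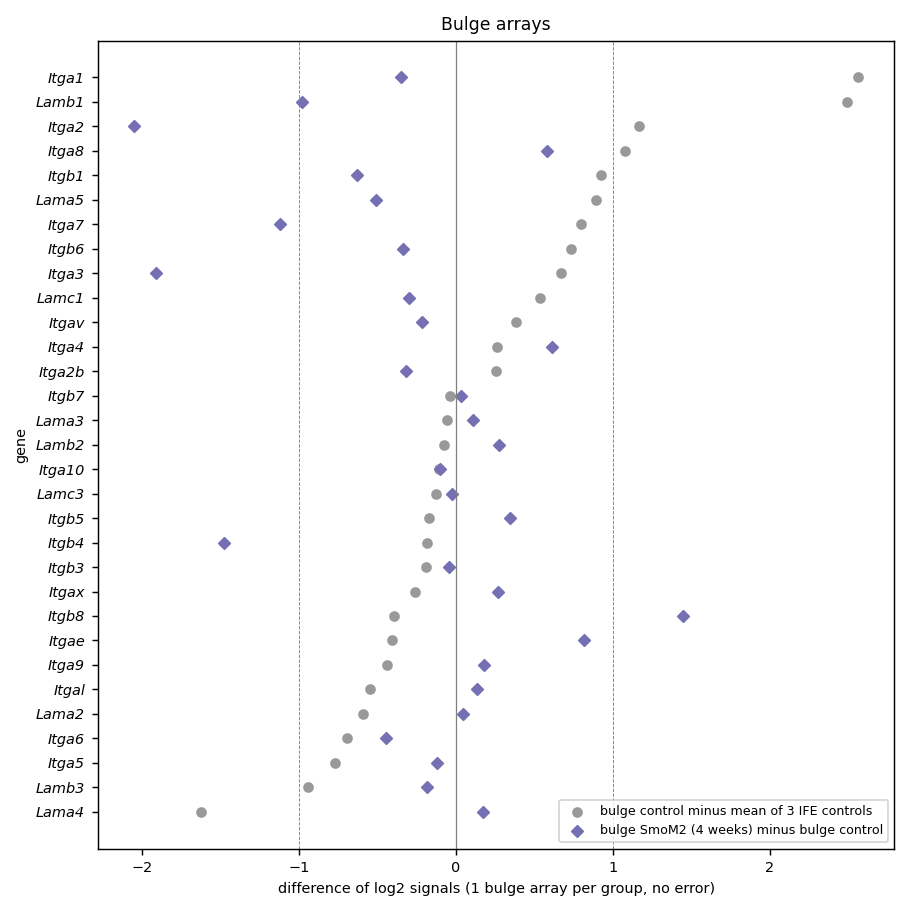
Differences of log2 signal for the 31 genes tested: bulge control minus the mean of the 3 IFE controls (circles) and bulge SmoM2 minus bulge control (diamonds), 1 bulge array per group and no error; dashed lines mark 1 on either side. Itga1 and Lamb1 lie at 2.56 and 2.49 in the circles, and Itga2 and Itga3 at -2.05 and -1.92 in the diamonds.

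At 3 days, with 1 array, 0 of 31 genes had an unadjusted p under 0.05, beside 1.55% of all genes. That array lay outside the controls for 16 genes, or 51.6%, against 44% of all genes. Between 1 and 4 weeks, and between 4 and 10 weeks, 0 members passed, as did 0 of all genes, with 3 and 4 members at an unadjusted p under 0.05 (beside 4.82% and 6.25% of all genes). Over all IFE groups, limma's moderated F test called 0 members, beside 162 of all genes (1.13%). Unadjusted, 8 members had p under 0.05 in that test (25.8%, against 15.3% of all genes): Itga3, Itga8, Itgae, Itgb4, Itgb6, Itgb8, Lama2 and Lamb2.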

How the data were processed

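The authors deposited 1 table of log2 signals for 45101 probe sets in 16 Affymetrix arrays (scale read from the values). The submitters' processing notes name R 2.14.0; background correction and normalization were not given in the sources used here. Of the probe sets, 34958 had 1 gene symbol in the array annotation, 932 several and 9211 none. Probe sets of 1 symbol gave 18194 genes, each represented by its brightest probe set, and the 14286 above an array's 40th percentile in at least 2 arrays were tested. The number of arrays limits the precision.

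Group means of the 14 IFE arrays were fitted with limma 3.58.1 in R 4.3.3 (empirical Bayes; tested on simulated data), with 8 contrasts and a moderated F test. Benjamini-Hochberg adjustment ran over all 14286 genes, with a threshold of 0.05. The 3-day array takes its spread from the other groups. Bulge arrays were compared by differences over 1 on the log2 scale. Named members were those past the threshold and a set of epidermal integrins and laminins; other members are named for an unadjusted p under 0.05 or groups without overlap. For the other lists, they were the genes past the threshold or nearest to it. The members and lists were chosen with earlier results of these data known.

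Same-numbered control, 1-week and 4-week arrays deviated together from their group means (r 0.34 to 0.70 across genes in 9 pairs of arrays), so a fit with the replicate number as a block is given where it changes a call. Pairs with the 10-week or β-catenin loss arrays did so less or not at all (-0.18 to 0.12 in 14 pairs by replicate number, up to 0.178 in 13 pairs by experiment number). Alternatives were quantile normalization, median centring, other filters, the mean of all probe sets, fewer arrays, array weights, an intensity trend, blocks, Y-linked signal (3 genes) as a covariate and each array left out.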

Additional observations from a re-analysis of the deposited data

Results flagged for a closer look

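The tested differences between SmoM2 with β-catenin loss and SmoM2 alone at 4 weeks were those of Itga3 (1.23), Itga8 (-3.65) and Lamb2 (-1.17), on the log2 scale (limma adjusted p = 0.0409, 0.0452 and 0.0438).

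Some untested contrasts ran in opposite directions in every array. For Itga1 the bulge difference between SmoM2 and control was -0.35, where all 3 IFE arrays at 4 weeks lay above the IFE controls, and for Lama2 it was 0.044, where all 3 lay below. The lone 3-day array minus the control mean was 0.41 for Lama2, where the 1-week, 4-week, 10-week and β-catenin loss arrays all lay below the controls. It was -1.30 for Itga8 and -1.09 for Itgb8, where all 4-week and 10-week arrays lay above the controls. It was 0.34 for Lamb1, where both 10-week arrays lay below, and -0.70 for Itga3, where both β-catenin loss arrays lay above. These differences between groups were not tested, and each rests on 1 array. No group held 4 arrays, so no single array could be checked against its group.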

How the results depend on the processing

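The count of members called for β-catenin loss against SmoM2 alone was 3; it was 0 with only the groups compared, 0 with array weights and 0 to 1 with single arrays left out. At 4 weeks against control it went from 0 to 3 with the replicate block, 2 with the experiment number as the block, 2 with the block within the control, 1-week and 4-week arrays (chosen after seeing the data) and 2 with the Y-linked covariate. At 10 weeks against control it went from 0 to 4 with only the groups compared, 7 with array weights, 1 with the replicate block and 1 with the Y-linked covariate. For the F test it went from 0 to 6 with array weights, 1 with the Y-linked covariate and 0 to 2 with single arrays left out (2 without 1-week replicate 2). For the bulge control against the IFE controls, 5 genes past 1 became 3 with the mean of all probe sets. Over all genes, the calls at 4 weeks were 463, and 873 with the replicate block; at 10 weeks 100, and 738 with only the groups compared 1545 with array weights or 163 with the replicate block; for the loss against SmoM2 alone 318, and 17 and 102 under those settings, 1347 with the replicate block, and 2 without loss replicate 1; for the F test 162, and 767 with the replicate block. The cause of these shifts was not tested. For the 37 pairs of member and comparison with an unadjusted p under 0.05, 560 of 608 values kept their direction and side of the threshold, 24 crossed to a call, 24 lost one, and none turned sign. The titles number the 10-week arrays 1 and 2 where the descriptions give experiments 2 and 3, and 3 of the planned 4 Y-linked genes had a probe set of their own.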
